A study of Mus musculus with 16 samples.

Results

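The lysosomal hydrolases and cathepsins described here are 37 genes chosen by symbol: proteases, glycosidases, sulfatases, lipid enzymes and their cofactors, without Ctsk, the osteoclast collagenase. All 37 were found among the 21936 deposited genes, and all 37 were among the 12093 that had enough counts to be tested. The set holds 12 proteases, the cathepsin inhibitor cystatin C and the carrier progranulin, 11 glycosidases, 5 sulfatases, and 7 lipid enzymes or lipid-binding cofactors. Membership goes by gene name, although the list was drawn up with earlier results of these data known.

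RNA was sequenced in 16 libraries from cultures of osteoclasts, the multinucleated cells that dissolve bone, grown from CD11b+ bone marrow cells of C57BL/6J mouse lines. Each culture had 3 days of M-CSF at 50 ng/ml, after which RANKL was added at 20 ng/ml, and RNA was harvested at the first sight of mature osteoclasts, between day 3 and day 5. The 4 genotypes, with 4 libraries each, were FLT3 ITD Ptprc KO (the double mutant, which carries a knock-in of the FLT3 internal tandem duplication, a leukaemia mutation of a growth factor receptor, and a knockout of Ptprc, the gene of the phosphatase CD45), FLT3 ITD (the knock-in alone), Ptprc KO (the knockout alone) and WT (wild type). The labels give neither age nor sex of the mice. They also do not say whether the 4 libraries of a genotype came from separate animals or cultures, so p-values here measure the spread between these libraries, which may be technical.

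Lysosomal hydrolases are made as inactive precursors, carry a mannose 6-phosphate tag to the lysosome and work at acid pH. Proteases there cut proteins to peptides, glycosidases and sulfatases take turns at removing sugars and sulfates from glycosaminoglycans and glycolipids, and lipid enzymes work with small activator proteins that lift lipids out of membranes. In osteoclasts, lysosomes also fuse with the membrane that faces bone and release their contents there, and macrophages, which share the precursor, are rich in the same enzymes.

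Many lysosomal genes are known to be controlled by TFEB and related factors of the MiT family, which bind the palindrome CACGTG and longer forms of it. Promoters of 32 of the 37 genes were found in RefSeq (35 sequences, mouse build GRCm38.p6, each from 250 bases before to 50 bases after the start). On both strands, CACGTG was present in 11 of the 35 promoters (31.4%, against 7.15% of all 32851 promoters). These belonged to Arsa, Ctsa, Ctsd, Ctsl, Dpp7, Gaa, Gla, Glb1, Lgmn, Naglu and Sgsh. Its longer form TCACGTGA, which contains CACGTG, was present in 4 of 35 (11.4%, against 0.974% of all), in Ctsa, Ctsd, Dpp7 and Gla, and TCACGTGA with a G before and a C after it in 0 of 35 (0.326% of all). The related TCATGTGA, which does not overlap CACGTG, was present in 6 of 35 (17.1%, against 0.986% of all), in Ctss, Dpp7, Gla, Grn, Ppt1 and Tpp1. A match describes the letters and is neither a bound site nor a cause of a level. The 5 promoters printed here all hold a match. Across libraries, as described further on, Ctsd, Ctss and Gla went with macrophage markers, Glb1 went with Ctsk, and Ctsa had r under 0.5 with both. Promoters of Arsb, Smpd1, Cst3 and Psap, which had the highest r with Ctsk or with the macrophage markers, held no match. Another promoter of Ctsa, at chr2:164832622-164832921, held none either and is not printed. Capitals mark CACGTG, TCACGTGA or TCATGTGA. The sequences are Ctsd at chr7:142387778-142388077 on the minus strand, Ctss at chr3:95526536-95526835 on the plus strand, Glb1 at chr9:114400828-114401127 on the plus strand, Ctsa at chr2:164833523-164833822 on the plus strand and Gla at chrX:134600956-134601255 on the minus strand.
Ctsd: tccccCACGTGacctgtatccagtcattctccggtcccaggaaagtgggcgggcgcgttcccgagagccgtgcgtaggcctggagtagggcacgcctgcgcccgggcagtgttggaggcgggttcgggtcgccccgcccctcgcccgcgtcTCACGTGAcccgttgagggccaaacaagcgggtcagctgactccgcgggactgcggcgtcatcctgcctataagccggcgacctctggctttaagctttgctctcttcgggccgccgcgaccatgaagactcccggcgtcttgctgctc
Ctss: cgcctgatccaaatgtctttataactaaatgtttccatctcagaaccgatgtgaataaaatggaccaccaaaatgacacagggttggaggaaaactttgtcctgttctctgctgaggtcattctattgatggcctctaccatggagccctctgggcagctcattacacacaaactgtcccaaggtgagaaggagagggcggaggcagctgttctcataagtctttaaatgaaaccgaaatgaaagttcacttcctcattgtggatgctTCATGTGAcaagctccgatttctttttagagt
Glb1: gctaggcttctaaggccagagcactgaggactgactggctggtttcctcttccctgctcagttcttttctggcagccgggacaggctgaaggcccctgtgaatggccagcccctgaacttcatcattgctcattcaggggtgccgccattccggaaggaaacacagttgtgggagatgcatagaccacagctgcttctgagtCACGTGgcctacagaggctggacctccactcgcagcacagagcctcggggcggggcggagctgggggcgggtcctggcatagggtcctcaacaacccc
Ctsa: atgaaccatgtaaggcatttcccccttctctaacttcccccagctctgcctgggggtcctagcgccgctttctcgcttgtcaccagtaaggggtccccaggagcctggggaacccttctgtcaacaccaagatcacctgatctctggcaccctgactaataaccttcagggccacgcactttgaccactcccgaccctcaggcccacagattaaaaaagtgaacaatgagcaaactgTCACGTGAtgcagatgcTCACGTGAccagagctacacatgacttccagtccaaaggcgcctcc
Gla: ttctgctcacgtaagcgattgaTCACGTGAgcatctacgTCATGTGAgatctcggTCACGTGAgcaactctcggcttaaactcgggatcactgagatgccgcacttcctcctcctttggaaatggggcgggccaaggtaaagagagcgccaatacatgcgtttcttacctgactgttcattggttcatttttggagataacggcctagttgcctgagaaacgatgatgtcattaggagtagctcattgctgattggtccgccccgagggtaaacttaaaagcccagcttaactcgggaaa

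Total counts per library ranged from 24211724 to 35773313. In CPM, which are counts scaled to library size, Ptprc averaged 64.8 ± 15.3 in the double mutant, 401 ± 129 CPM in FLT3 ITD, 38.7 ± 6.45 CPM in Ptprc KO and 454 ± 28.5 CPM in WT (SD, n = 4 each), so both knockout genotypes stood under both others, while the duplication cannot be read from gene counts. Ctsk, not a member, checked the labelled cell type and stood at 1904, 1399, 8508 and 1169 CPM in double-mutant replicates 1 to 4, at 12258, 18506, 11778 and 4203 CPM in FLT3 ITD, at 5960, 16696, 14900 and 6177 CPM in Ptprc KO and at 7302, 9366, 7856 and 8103 CPM in WT. Double-mutant replicate 3 and FLT3 ITD replicate 4 stood apart from the other libraries of their genotypes, at the WT level and below it. FLT3 ITD replicates 1 and 3 were the closest pair of any genotype, with a chi-square per gene of 2.76 where the pair after it had 12.8, and were kept as 2 libraries in the fits, although the labels do not say whether they are separate cultures. In FLT3 ITD replicate 2, expression relative to the other libraries fell with gene length (Spearman rho -0.441 across genes, and -0.174 to 0.198 in the other 15 libraries). Sums of 12 macrophage markers ranged over 2727 to 8558 CPM in the double mutant, 2919 to 8033 CPM in FLT3 ITD, 2680 to 7006 CPM in Ptprc KO and 2899 to 6688 CPM in WT. Of these 12 markers, Vsig4, which marks tissue macrophages, was at 0 CPM in both genotypes with the duplication. The list as a whole did not follow it, with 7 markers higher and 5 lower in the double mutant than in WT. In FLT3 ITD, 5 were higher and 7 lower than in WT.

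Together the 37 genes took 2.93% ± 1.07 of all counts in the double mutant, 2.94% ± 1.35 in FLT3 ITD, 2.58% ± 0.87 in Ptprc KO and 2.65% ± 0.61 in WT (SD, n = 4 each). The library ranges of all 4 genotypes overlapped. Per length, prosaposin (Psap), the precursor of the saposins that present glycolipids to their enzymes, was the most abundant, at 7752 ± 5150 TPM (transcript abundance scaled by length and library) in the double mutant, 7024 ± 5920 TPM in FLT3 ITD, 6299 ± 4248 TPM in Ptprc KO and 6538 ± 2696 TPM in WT (SD, n = 4 each). By mean TPM over the genotypes, the aspartic protease Ctsd followed, and then the cysteine proteases Ctss and Ctsb. In WT, Ctsd had 2820 ± 829 TPM, Ctsb 2620 ± 929 TPM, Ctsz 2417 ± 49.1 TPM, Ctss 2274 ± 1125 TPM and Cst3 2217 ± 141 TPM, so these neighbours in the order did not differ beyond their spread. Ctse, an aspartic protease of other tissues, was near the limit of detection, with 9, 27, 6 and 10 counts in double-mutant replicates 1 to 4, 8, 1, 8 and 26 counts in FLT3 ITD, 9, 5, 2 and 12 counts in Ptprc KO and 3, 0, 12 and 4 counts in WT. It was therefore left out of the summary of spread. Idua, the alpha-L-iduronidase of glycosaminoglycans, was the next lowest, at 40.6 ± 5.18 TPM in WT.

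**Figure D1:**
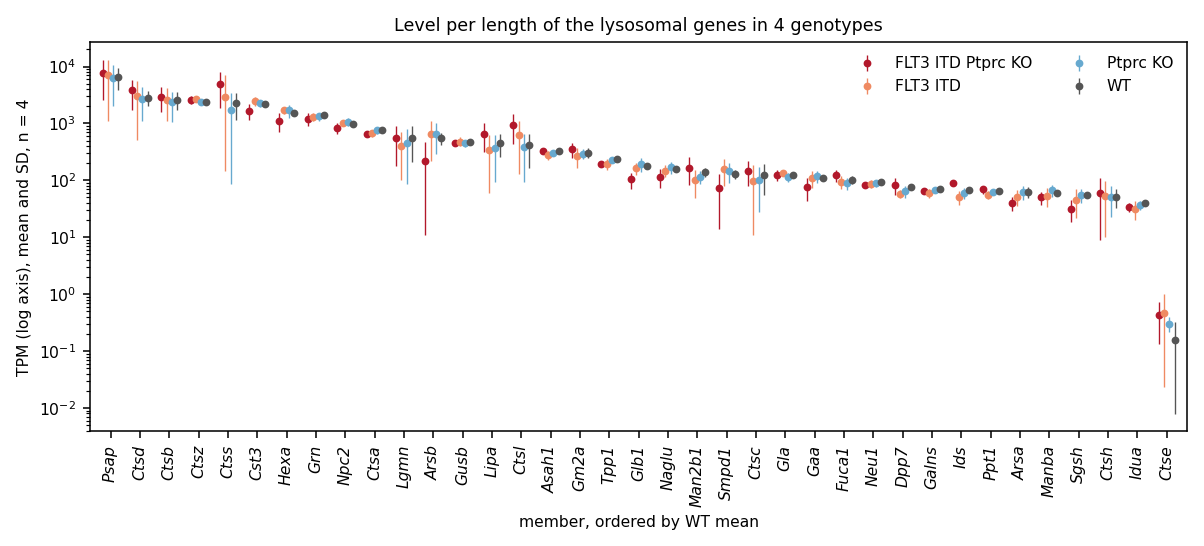
Level per length of the 37 genes in TPM on a log axis, as mean and SD of 4 libraries, for the double mutant, FLT3 ITD, Ptprc KO and WT from left to right at each gene. Psap is highest and Ctse lowest in every genotype, and Arsb and Ctss have among the widest SD bars.

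The libraries of the mutants were more scattered than those of WT, a difference that was not tested. The median coefficient of variation over 36 members was 31.8% in the double mutant, 25.5% in FLT3 ITD, 29.2% in Ptprc KO and 11.9% in WT. Across all 16 libraries, the highest level was 18.7 times the lowest for Ctss, 14.4 times for Arsb and 8.73 times for Smpd1, whereas it was 1.60 times for the acid ceramidase Asah1 and 1.63 times for the tripeptidyl peptidase Tpp1.

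Comparing the double mutant with FLT3 ITD addresses the loss of Ptprc in cells that carry the mutant receptor. With all libraries, 0 of the 37 genes passed (quasi-likelihood test in edgeR, Benjamini-Hochberg adjusted p under 0.05, where 0.00827% of all tested genes passed), and 9 had an unadjusted p under 0.05, 1 higher and 8 lower. Among all genes, 11.9% were higher and 13.7% lower at that level, so 1 of 37 lay under the background and 8 of 37 above it. These 9 members became 6 with FLT3 ITD replicates 1 and 3 summed (2919 of 12189 genes at that level). With replicate 2 also left out they became 3 (1075 of 12315 genes). Without FLT3 ITD replicate 2 alone they became 5 (1750 of 12201 genes), and without FLT3 ITD replicate 4 they became 16 (4701 of 12197 genes). DESeq2 called 3 members (Cst3, Glb1 and Ids) among 5.97% of genes. The median log2 fold change was -0.06, against 0.03 over all genes, with 15 members positive (52% of all genes were) and 22 negative. Without double-mutant replicate 2, 7 members were positive and the median was -0.36, and with FLT3 ITD replicates 1 and 3 summed into 1 library it was -0.17. RLE scaling of the counts kept the sign (-0.09, with 14 positive). In limma on log2(TPM + 1), which differs from the count fit in its test, its filter and its source table as well, the median was 0.08 for the members and 0.22 for all genes.

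The classes pointed different ways in this comparison when all libraries were used. Of the 12 proteases, 8 were positive (median 0.08) and 0 had a p under 0.05, from Ctsz at -0.28 (SE 0.20) to Ctss at 0.53 (SE 0.87). Glycosidases were negative in 9 of 11 (median -0.29), 4 of them with a p under 0.05, and sulfatases in 4 of 5 (median -0.54). Lipid enzymes and cofactors were positive in 4 of 7 (median 0.03). Without double-mutant replicate 2, only 7 of all 37 members were positive (median -0.36), so the 8 positive proteases did not all stay positive without that library. With TPM, where Ctse fell under the minimum, 9 of 11 proteases were positive (median 0.42) and 5 of 7 lipid enzymes and cofactors (median 0.25), and 8 of 11 glycosidases (median -0.07) and 3 of 5 sulfatases (median -0.34) were negative. Whether fewer cells of a type or less RNA per cell lies behind a level cannot be told apart in these bulk samples.

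Among the glycosidases, Glb1, the beta-galactosidase of gangliosides and keratan sulfate, stood at 82.4, 93.3, 126 and 56.6 CPM in double-mutant replicates 1 to 4, 177, 165, 170.5 and 123 CPM in FLT3 ITD, 112, 243, 215 and 139 CPM in Ptprc KO and 143, 149.5, 161 and 147 CPM in WT. Only double-mutant replicate 3 reached the level of the lowest FLT3 ITD library, and all 4 double-mutant libraries lay under all 4 WT libraries. Its log2 fold change was -0.83 (SE 0.25, unadjusted p = 0.00524, adjusted p = 0.115, edgeR quasi-likelihood test). Hexa, the alpha subunit of the hexosaminidase that degrades GM2 ganglioside, stood at 489, 884, 844 and 352 CPM in the double mutant, 1104, 1406, 1091 and 957 CPM in FLT3 ITD, 643, 1345, 1304 and 860.3 CPM in Ptprc KO and 771, 889, 873 and 855 CPM in WT. Every double-mutant library lay under every FLT3 ITD library, with replicates 2 and 3 of the double mutant at the WT level and replicates 1 and 4 far below. For Hexa the log2 fold change came to -0.83 (SE 0.29, unadjusted p = 0.0114, adjusted p = 0.128, edgeR quasi-likelihood test). Naglu, which removes N-acetylglucosamine from heparan sulfate, stood at 70.5, 98.4, 125 and 53.8 CPM in the double mutant, 142, 112, 138 and 118 CPM in FLT3 ITD, 96.8, 177, 165 and 105 CPM in Ptprc KO and 115, 115, 119 and 118 CPM in WT. Its WT libraries were nearly equal, and the double mutant had 3 libraries below and 1 library above them. The log2 fold change of Naglu was -0.55 (SE 0.24, unadjusted p = 0.0378, adjusted p = 0.172, edgeR quasi-likelihood test). Gaa, which frees glucose from glycogen, had a log2 fold change of -0.66 (SE 0.29), and the alpha-mannosidase Man2b1 pointed the other way at 0.58 (SE 0.39).

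The sulfatases held the widest contrast. Arsb, which takes sulfate from chondroitin and dermatan sulfate, stood at 201, 151, 1039 and 129 CPM in double-mutant replicates 1 to 4, 1804, 1231, 1771 and 202 CPM in FLT3 ITD, 693, 1828, 1856 and 466 CPM in Ptprc KO and 850.5, 1139, 660.3 and 1048 CPM in WT. Double-mutant replicates 1, 2 and 4 lay under all other libraries except FLT3 ITD replicate 4, which was as low, while double-mutant replicate 3 was at the WT level. This gave Arsb a log2 fold change of -1.72 (SE 0.74, unadjusted p = 0.0345, adjusted p = 0.166, edgeR quasi-likelihood test). Ids, the iduronate 2-sulfatase of heparan and dermatan sulfate, went the other way, at 125, 154, 113 and 138 CPM in the double mutant, 95.4, 58.9, 88.04 and 105 CPM in FLT3 ITD, 102, 83.8, 82.7 and 94.1 CPM in Ptprc KO and 106, 96.5, 103 and 93.6 CPM in WT. The lowest double-mutant library lay over the highest library of the other 3 genotypes. Its log2 fold change was 0.61 (SE 0.16, unadjusted p = 0.00171, adjusted p = 0.105, edgeR quasi-likelihood test). Such a separation between the double mutant and FLT3 ITD was found for 1 member upward (Ids, where 4.95% of all genes were separated upward) and 1 downward (Hexa, where 3.52% were). The heparan N-sulfatase Sgsh stood at -0.66 (SE 0.36) and the sulfatide-degrading Arsa at -0.54 (SE 0.26).

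Of the proteases and their inhibitor, cystatin C (Cst3), which is secreted and blocks cysteine cathepsins, stood at 468, 578, 888 and 517 CPM in the double mutant, 893, 1480, 870.4 and 915 CPM in FLT3 ITD, 711, 1055, 1010 and 726 CPM in Ptprc KO and 795, 815, 766 and 767 CPM in WT. Double-mutant replicate 3 was at the level of FLT3 ITD replicates 1, 3 and 4. FLT3 ITD replicate 2, the library whose expression fell with gene length, was far above all other libraries. In TPM, Cst3 averaged 1677 ± 530 in the double mutant, 2448 ± 440 in FLT3 ITD, 2288 ± 334 in Ptprc KO and 2217 ± 141 in WT (SD, n = 4 each). The part of gene length in its level was not tested. For Cst3 the log2 fold change came to -0.76 (SE 0.23, unadjusted p = 0.00433, adjusted p = 0.114, edgeR quasi-likelihood test). Ctss, which trims the invariant chain of MHC class II, stood at 1823, 4004, 707 and 1540 CPM in the double mutant, 359.8, 447, 353 and 4414 CPM in FLT3 ITD, 486, 343, 236 and 1792 CPM in Ptprc KO and 721, 438, 1552 and 823 CPM in WT. The highest library of all was FLT3 ITD replicate 4, next to double-mutant replicate 2, and the other 3 FLT3 ITD libraries lay under all double-mutant libraries. Its log2 fold change of 0.53 (SE 0.87) turned to -0.04 without double-mutant replicate 2. Ctsl, a cysteine protease, stood at 2748, 1858, 495 and 1920 CPM in the double mutant, 680.4, 1056, 691 and 3142 CPM in FLT3 ITD, 614, 397, 365 and 1576 CPM in Ptprc KO and 627, 375, 1502 and 576 CPM in WT. FLT3 ITD replicate 4 was again the highest library, and double-mutant replicate 3 lay under all FLT3 ITD libraries. The log2 fold change of Ctsl was 0.33 (SE 0.65).

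Lipid enzymes differed among themselves. Smpd1, the acid sphingomyelinase, stood at 50.0, 29.3, 151 and 43.8 CPM in the double mutant, 193, 256, 184 and 46.8 CPM in FLT3 ITD, 113, 199, 199 and 73.1 CPM in Ptprc KO and 120.4, 134, 95.2 and 128 CPM in WT, with double-mutant replicate 3 high and FLT3 ITD replicate 4 low in their genotypes, as for Arsb. The log2 fold change of Smpd1 was -1.31 (SE 0.53, unadjusted p = 0.0269, adjusted p = 0.153, edgeR quasi-likelihood test). Npc2, which carries cholesterol out of the lysosome, had a log2 fold change of -0.50 (SE 0.20). Lipa, the lysosomal acid lipase that splits cholesteryl esters, was positive at 0.76 (SE 0.61). Its levels were 1450, 2381, 525 and 1019 CPM in the double mutant, 499.7, 310.5, 508 and 1845 CPM in FLT3 ITD, 408, 527, 483 and 1625 CPM in Ptprc KO and 754, 590.4, 1538 and 693 CPM in WT, and the double-mutant and FLT3 ITD ranges overlapped through FLT3 ITD replicate 4.

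**Figure D2:**
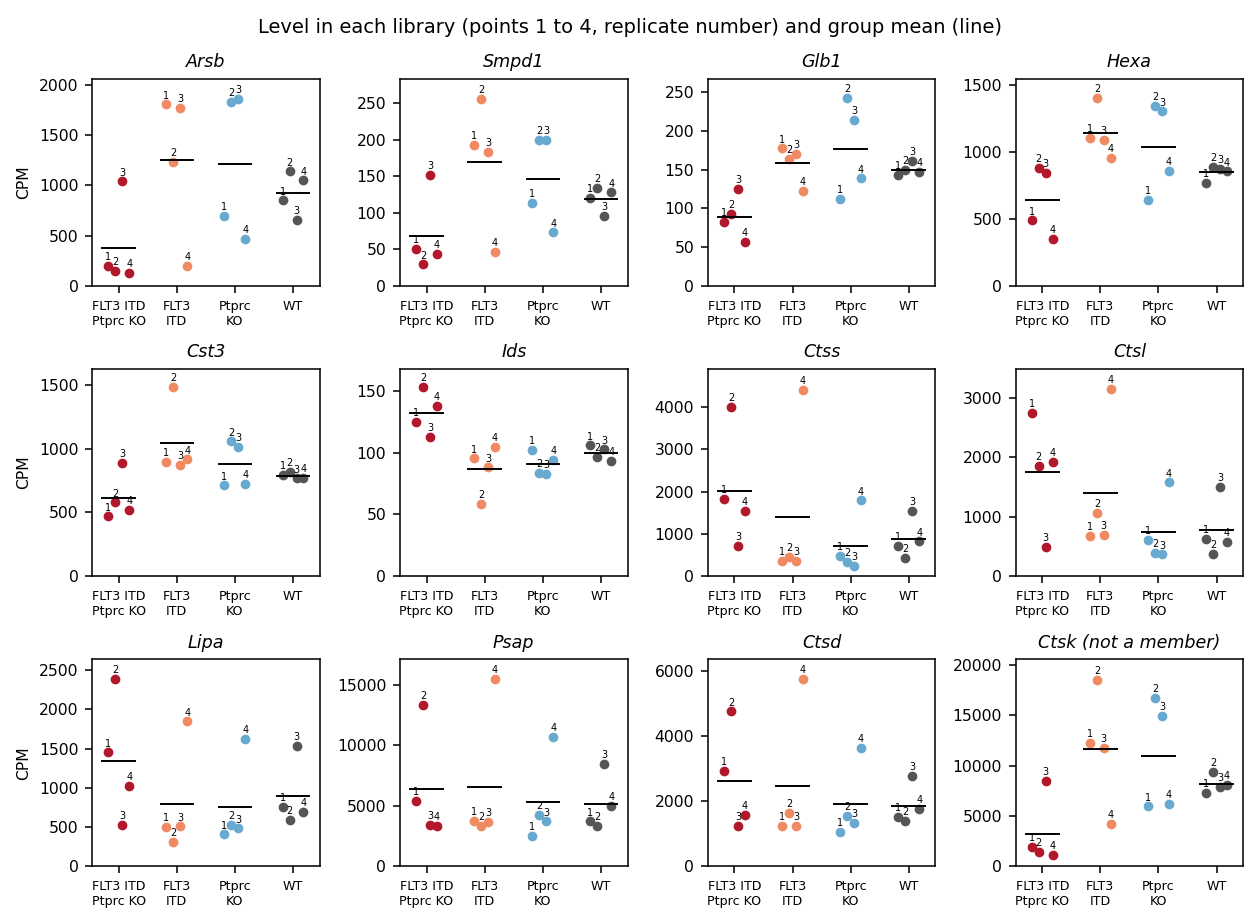
CPM of 11 members and of Ctsk in each library, with points numbered by replicate and lines at the group mean, for the double mutant, FLT3 ITD, Ptprc KO and WT from left to right. For Arsb and Smpd1, double-mutant replicate 3 lies above the other 3 libraries of its genotype and FLT3 ITD replicate 4 below its own, and for Ctss, Psap and Ctsd, FLT3 ITD replicate 4 is the highest library.

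The count of members that passed depended on which libraries were used. Without double-mutant replicate 3, 8 members passed (2 higher and 6 lower, where 10.8% of all genes passed), which were Arsb, Cst3, Dpp7, Gaa, Glb1, Ids, Naglu and Smpd1. Without FLT3 ITD replicate 4, 6 members passed (2 higher and 4 lower, where 14.7% of all genes passed), which were Cst3, Ctss, Glb1, Ids, Sgsh and Smpd1. With both left out, 16 of 37 passed, or 43.2% of the members against 33.4% of all genes. In that fit the lower ones were Arsa, Arsb, Cst3, Gaa, Glb1, Hexa, Manba, Naglu, Npc2, Sgsh and Smpd1, and the higher ones were Ctss, Dpp7, Ids, Lipa and Man2b1. Arsb then stood at -3.32 (SE 0.48, adjusted p = 0.00164) and Smpd1 at -2.36 (SE 0.35, adjusted p = 0.00167), by the edgeR quasi-likelihood test. Both libraries were chosen after seeing their expression, so these counts describe how far the result rests on them. Beside these values, all 16 resorption genes and all 10 osteoclast markers had negative log2 fold changes in the fit of all libraries (median -1.04 and -1.59), where 52% of all genes were positive. In both lists 0 genes passed (smallest adjusted p = 0.105 in each, edgeR quasi-likelihood test). The osteoclast marker sum was 8453 to 46288 CPM in the double mutant, 15878 to 55487 CPM in FLT3 ITD, 24873 to 64442 CPM in Ptprc KO and 29343 to 37930.5 CPM in WT. Macrophage markers were positive in 6 and negative in 5 of 12. Neutrophil markers summed to 0.554 to 12.4 CPM in the double mutant and 5.92 to 108 CPM in FLT3 ITD. The sum of 8 dendritic cell markers, Flt3 among them, was 62.4 to 434 CPM in the double mutant, 21.0 to 163 CPM in FLT3 ITD, 24.3 to 42.4 CPM in Ptprc KO and 34.4 to 59.3 CPM in WT, so every double-mutant library lay over every Ptprc KO and WT library. Of the 5 dendritic markers tested, 3 were positive and 2 negative against Ptprc KO, as against WT, so the higher sums do not hold for every marker. Against FLT3 ITD, 1 was positive and 4 were negative. The part of these cell types in the members' values was not tested.

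Comparing the double mutant with Ptprc KO addresses the mutant receptor in cells without Ptprc. Again 0 of 37 members passed (0.091% of all genes did, edgeR quasi-likelihood test), and 1 was higher and 8 lower at an unadjusted p under 0.05, where 8.75% and 9.07% of all genes were. DESeq2 called 1 member, Glb1, among 2.08% of genes. Of all members 19 were positive (54.4% of all genes were), with a median of 0.03 against 0.04 over all genes. Without double-mutant replicate 2, 11 were positive and the median was -0.15. Of the proteases 10 of 12 were positive (median 0.31), and 8 of 11 glycosidases (median -0.18) and 4 of 5 sulfatases (median -0.74) were negative. Glb1 had a log2 fold change against Ptprc KO of -0.98 (SE 0.25, unadjusted p = 0.00153, adjusted p = 0.138, edgeR quasi-likelihood test). Ids had a log2 fold change against Ptprc KO of 0.54 (SE 0.16, unadjusted p = 0.00384, adjusted p = 0.181, edgeR quasi-likelihood test). Ids was the 1 member whose double-mutant libraries all lay over the Ptprc KO libraries (3.48% of all genes), and 0 members had them all under (2.84% of all genes). Arsa, arylsulfatase A, stood at 36.1, 35.0, 58.6 and 40.5 CPM in the double mutant, 70.6, 67.5, 70.7 and 37.8 CPM in FLT3 ITD, 62.2, 91.7, 88.4 and 42.7 CPM in Ptprc KO and 72.4, 68.0, 47.7 and 66.7 CPM in WT. Ptprc KO replicate 4 lay within the double-mutant range and the other 3 Ptprc KO libraries above it. Arsa had a log2 fold change against Ptprc KO of -0.74 (SE 0.26, unadjusted p = 0.0136, adjusted p = 0.237, edgeR quasi-likelihood test). The largest positive values were those of Ctss (1.498, SE 0.89) and Ctsl (1.25, SE 0.66), neither with a p under 0.05. Without double-mutant replicate 3, 7 members passed (6.45% of all genes), namely Arsb, Cst3, Dpp7, Glb1, Ids, Naglu and Smpd1, and with FLT3 ITD replicate 4 left out as well 11 passed (18.1% of all genes). FLT3 ITD replicate 4 is in neither group compared here, but all genotypes share 1 estimate of the spread in the fit.

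Against WT, the double mutant had 0 members that passed (0.108% of all genes, edgeR quasi-likelihood test). Those with an unadjusted p under 0.05 were Ids upward (4.2% of all genes) and Glb1 and Arsa downward (3.69% of all genes). Glb1 stood at -0.75 (SE 0.25), Ids at 0.41 (SE 0.16) and Arsa at -0.58 (SE 0.26). Of all members 19 were positive (56.3% of all genes were), with a median of 0.01 against 0.05. It was -0.05 with TPM, and -0.14 with 9 members positive without double-mutant replicate 2. For Glb1 and Ids the library ranges did not overlap, which held for 2.56% of all genes downward and 2.94% upward. Without double-mutant replicate 3, 0 members passed (0.681% of all genes). With FLT3 ITD replicate 4, which is in neither group here, left out as well, 4 passed (Arsb, Glb1, Sgsh and Smpd1, all lower, 6.68% of all genes).

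In the single mutants against WT, 0 members had an unadjusted p under 0.05. This background was 5.23% of genes upward and 3.23% downward for FLT3 ITD, and 0.339% and 0.504% for Ptprc KO. In FLT3 ITD against WT 0 members passed (0.0413% of all genes), and 27 of 37 were positive (54.5% of all genes were) with a median log2 fold change of 0.13, against 0.04 over all genes. Without FLT3 ITD replicate 4, 19 were positive and the median was 0.01, and without WT replicate 3 these values were 30 and 0.21. RLE scaling gave 27 positive and a median of 0.14, while limma on log2(TPM + 1) gave medians of -0.18 for the members and -0.21 for all genes. The smallest p belonged to Ctsz, a carboxypeptidase, at 0.42 (SE 0.20, unadjusted p = 0.0524). Cst3, Npc2 and Hexa lay higher in every FLT3 ITD library than in any WT library, which held for 2.89% of all genes, and 0 members lay lower (3.2% of all genes). In Ptprc KO against WT 0 members passed (0.0331% of all genes), 24 of 37 were positive (54.9% of all genes were) with a median of 0.04 against 0.02 (-0.09 with TPM), and values from -0.31 (Ctss, SE 0.87) to 0.63 (Ctse, SE 0.96). With 1 library left out, the number of positive members ran from 17 (without WT replicate 1, median -0.02) to 30 (without WT replicate 3, median 0.13). For the interaction, the difference between the effect of FLT3 ITD with Ptprc lost and with it intact, 0 members passed (0.00827% of all genes). At an unadjusted p under 0.05, 1 was positive (Ids at 0.74, SE 0.22) where 7.4% of all genes were, and 6 were negative where 10.1% were, while 14 of 37 were positive at any p (51.2% of all genes were). The median of the members was -0.16, against 0.02 over all genes, and with TPM it was 0.16, against 0.31. It was -0.39 with 9 positive without double-mutant replicate 2, -0.31 with FLT3 ITD replicates 1 and 3 summed, and -0.20 with RLE scaling. The 6 negative ones were Glb1 at -1.06 (SE 0.35), Cst3 at -0.92 (SE 0.32), Hexa at -1.12 (SE 0.40), Npc2 at -0.76 (SE 0.28), Naglu at -0.77 (SE 0.34) and Smpd1 at -1.60 (SE 0.74). With both libraries left out, 14 members passed (20.2% of all genes). The comparisons share libraries and are not independent of each other.

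**Figure D3:**
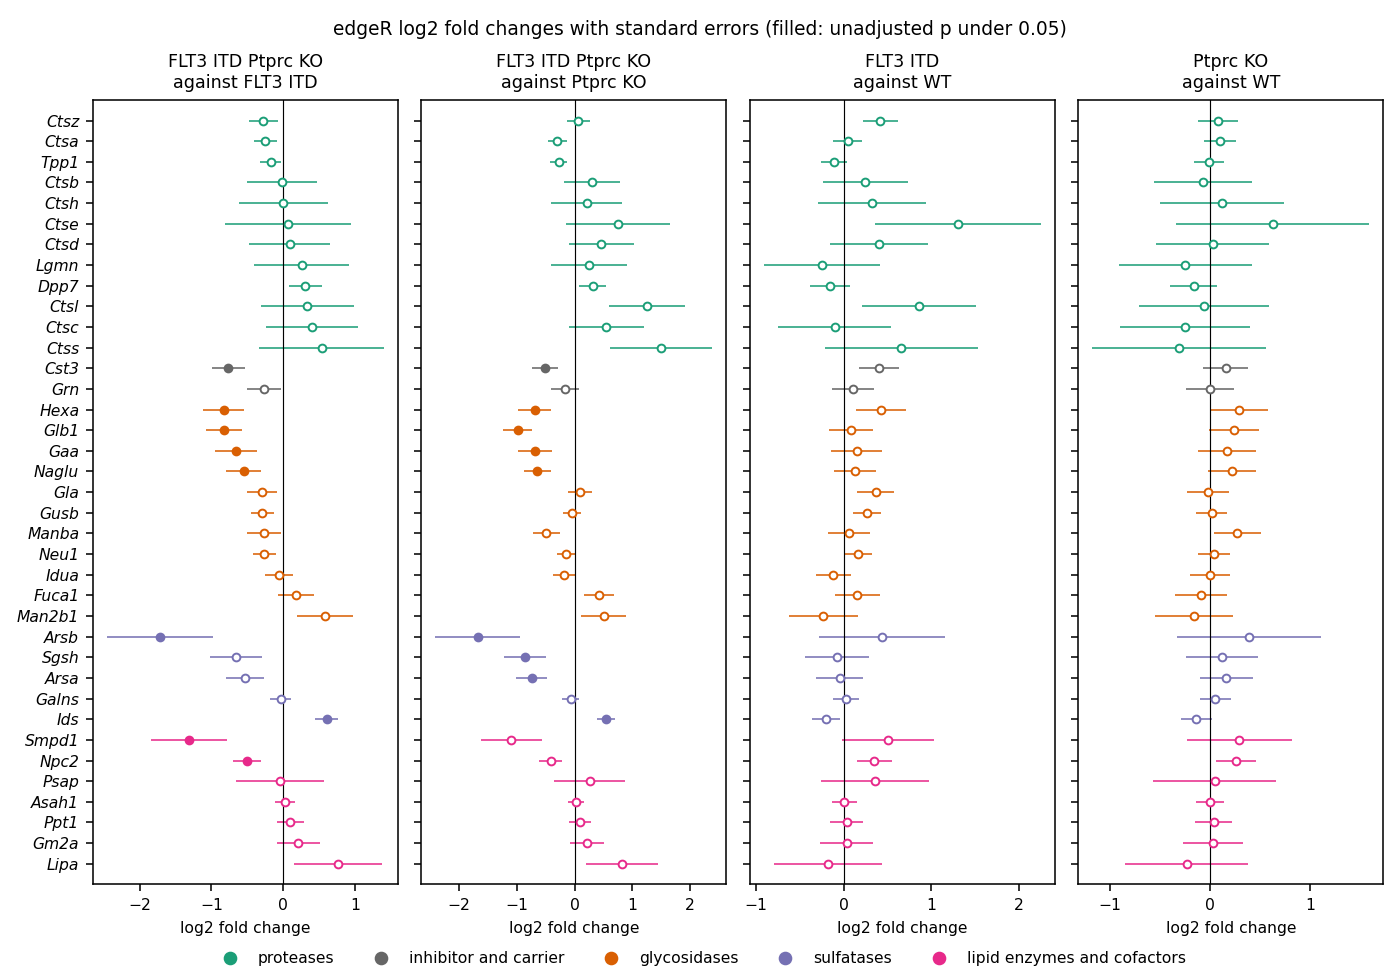
Log2 fold changes of the 37 genes with standard errors from edgeR, by class, for the double mutant against FLT3 ITD, the double mutant against Ptprc KO, FLT3 ITD against WT and Ptprc KO against WT. Filled points had an unadjusted p under 0.05, which 9 members had in each of the first panels and 0 in the last ones.

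Because libraries of 1 genotype differed so widely, the members were also compared with osteoclast and macrophage genes within genotypes. Each library's log2 CPM was taken as the deviation from the mean of its genotype, with FLT3 ITD replicates 1 and 3 averaged into 1, which left 15 libraries, and p-values came from 100000 permutations within genotypes, adjusted over all 12093 genes. Against Ctsk, 0 members passed, as did 0 of all genes. Ctsk itself was among the genes tested, so even a perfect relation did not pass, and this 0 says nothing about the members. At an unadjusted p under 0.05 there were 19 members, 13 positive (20.1% of all genes) and 6 negative (17.6% of all genes). The positive ones were led by Arsb (Pearson r 0.942, Spearman rho 0.929, permutation p = 0.00406, adjusted p = 0.0562) and Smpd1 (r 0.935, rho 0.943, permutation p = 0.00245, adjusted p = 0.0562). Without the libraries farthest from the median of Ctsk, double-mutant replicate 3 and FLT3 ITD replicate 4, r was 0.822 for Arsb and 0.825 for Smpd1. Cst3 (r 0.848), the beta-mannosidase Manba (r 0.839), Glb1 (r 0.834) and Sgsh (r 0.814) came next. The negative end held the dipeptidyl peptidase Dpp7 (r -0.858), Ctsl (r -0.780), Ids (r -0.772), Ctss (r -0.751) and Lipa (r -0.704), which became -0.504, -0.462, -0.687, -0.547 and -0.332 without the same 2 libraries, so that of Lipa above all rests on them. By class, proteases were negative in 10 of 12, glycosidases positive in 8 of 11 and sulfatases positive in all but Ids. Of all genes, 47.5% were positive and 52.5% negative. Without the same 2 libraries, r was -0.028 for Ctsb, -0.087 for Ctsd and -0.085 for Ctsh, and Ctsz turned positive at 0.281. Lgmn, Ctsc and Ctse stayed negative at -0.221, -0.374 and -0.499. Deviations of log2(TPM + 1) called 11 members (6 positive and 5 negative), or 30.6% of those tested against 20.4% of all genes. With FLT3 ITD replicates 1 and 3 kept apart 13 were called, or 35.1% against 24.6% of all genes.

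**Figure D4:**
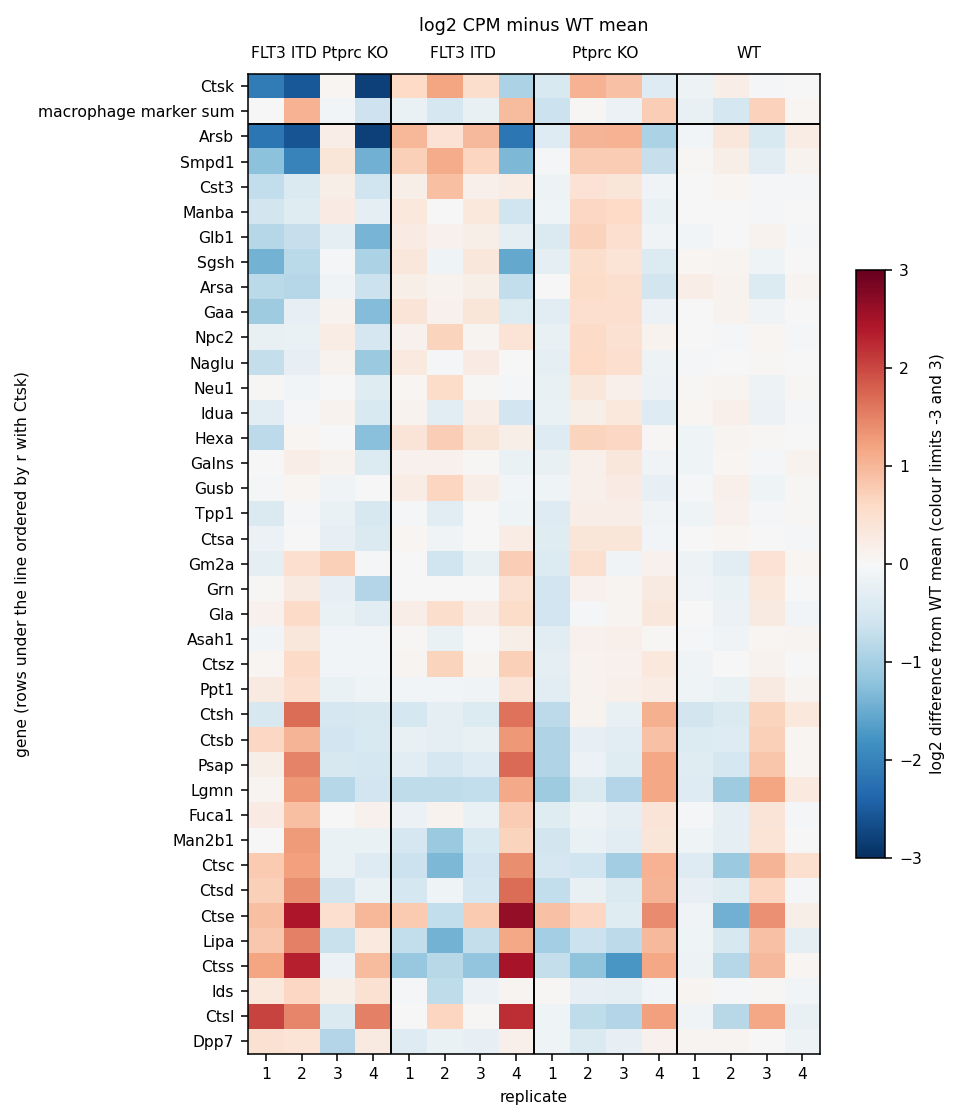
Log2 CPM of Ctsk, of the macrophage marker sum and of the 37 genes in each library, minus the WT mean, with the genotypes from double mutant to WT and replicates 1 to 4 across, and genes ordered by r with Ctsk. Arsb, Smpd1 and the genes near them are low in double-mutant replicates 1, 2 and 4, and the cathepsins in the lower rows are high in double-mutant replicate 2, FLT3 ITD replicate 4, Ptprc KO replicate 4 and WT replicate 3.

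With the log2 sum of the 12 macrophage markers in place of Ctsk, a comparison added after seeing the data, 16 members passed, all positive, where 13.7% of all genes passed upward and 9.24% downward. They were Psap, Lgmn (the asparaginyl endopeptidase legumain), Man2b1, Ctsh, Ctsb, Fuca1, Ctsd, Ctsc, Ppt1, Grn, Lipa, Ctse, Ctss, Gla, Asah1 and Gm2a. Among them, the protease Ctse was near the limit of detection, at 0 to 1.08 CPM over the libraries. Psap was highest (r 0.970, rho 0.943, permutation p = 2e-05, adjusted p = 0.0055), and without double-mutant replicate 2 and FLT3 ITD replicate 4, the libraries farthest from the median, its r was 0.940. Its levels were 5414, 13321, 3395 and 3329 CPM in the double mutant, 3748, 3377, 3667 and 15470 CPM in FLT3 ITD, 2550, 4219, 3712 and 10692 CPM in Ptprc KO and 3715, 3318, 8463 and 4980 CPM in WT. In each genotype 1 library lay far above the other 3. Ctsd followed the same libraries, at 2935, 4750, 1230 and 1574 CPM in the double mutant, 1241, 1630, 1238 and 5753 CPM in FLT3 ITD, 1070, 1549, 1338 and 3640 CPM in Ptprc KO and 1512, 1406, 2786 and 1756 CPM in WT (r 0.898, and 0.791 without the same 2 libraries). Ctsb stood at 6554, 8633, 2870 and 3139 CPM in the double mutant, 3692, 3508, 3687 and 10564 CPM in FLT3 ITD, 2280, 3607, 3432 and 7918 CPM in Ptprc KO and 3244, 3283, 7073 and 4464 CPM in WT (r 0.925, and 0.873 without them). All 12 proteases were positive, 7 of them called, while 0 of 5 sulfatases were called and Arsa was negative (r -0.646, adjusted p = 0.0982 by permutation). By rank correlation 7 members passed, all positive, where 2.32% of all genes passed upward, and with log2(TPM + 1) 15 did, 13 positive and 2 negative, where 25% of all genes passed in either direction. Leaving out Cd68, a marker that is itself a lysosomal membrane protein, 16 members passed, 15 positive and 1 negative, where 28.2% of all genes passed. Without 1 of the libraries in which the cathepsins were high, fewer members and fewer genes passed. The count was 6 without double-mutant replicate 2 (16.2% of the members against 1.74% of all genes), 11 without FLT3 ITD replicate 4 (29.7% against 11.1%), 9 without Ptprc KO replicate 4 (24.3% against 5.62%) and 8 without WT replicate 3 (21.6% against 6.18%), where all libraries gave 43.2% against 23.0%. What part macrophages in the cultures have in these values was not tested.

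With r over 0.5 taken as a description, 15 members went with Ctsk alone (25.9% of all genes did), 18 with the macrophage sum alone (25.6% of all genes), 0 with both (0 of all genes) and 4 with neither (48.5% of all genes), which were Ctsa, Dpp7, Ids and Tpp1. The points share their libraries, so the 2 sets of correlations are not independent. Ctsk and the macrophage sum moved in opposite directions in FLT3 ITD. There, as log2 minus the WT mean, Ctsk stood at 1.19 and -0.95 in replicates 2 and 4, and the macrophage sum at -0.51 and 0.95. In the double mutant and Ptprc KO this was not clear. Ctsk was -2.54 and -2.80 in double-mutant replicates 2 and 4, where the sum was 1.04 and -0.61. In Ptprc KO replicates 1 and 4 Ctsk was -0.45 and -0.40, and the sum -0.64 and 0.75. As 0 of all genes had r over 0.5 with both, the 0 among the members is no finding about them.

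**Figure D5:**
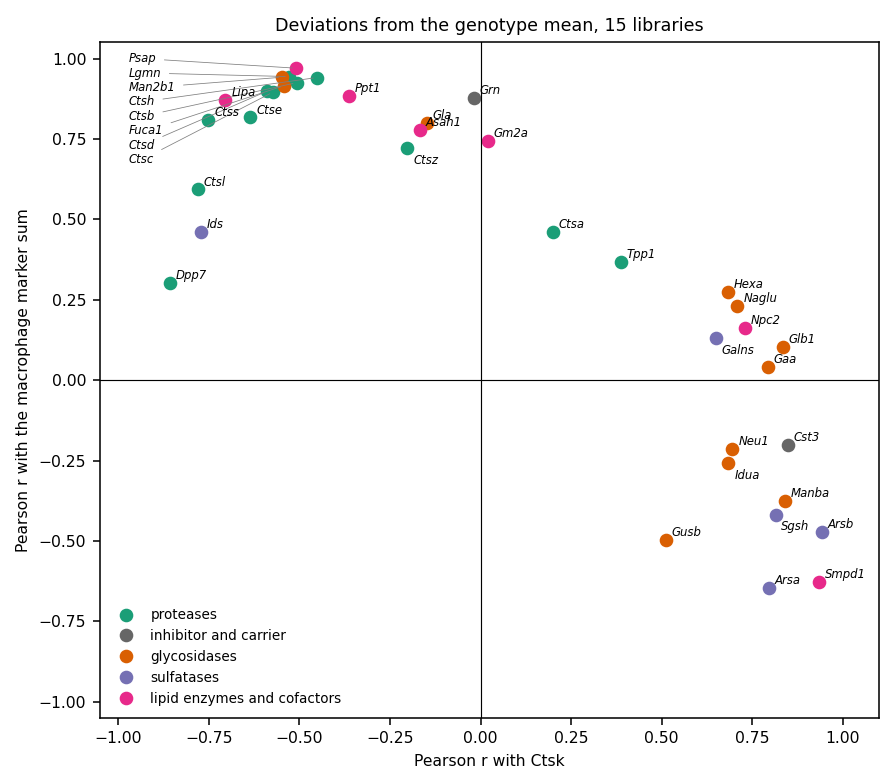
Pearson r of each member with Ctsk on the horizontal axis and with the macrophage marker sum on the vertical axis, over deviations from the genotype mean in 15 libraries, coloured by class. Arsb at 0.942 with Ctsk and Psap at 0.970 with the macrophage sum mark the 2 ends. With both, 0 members and 0 of all genes have r over 0.5.

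Other genes of the lysosome were read from the same fit. Of 23 further hydrolases tested, the double mutant had 12 higher and 11 lower than FLT3 ITD (median 0.09, 0 passed), led by the hyaluronidases Hyal2 (-1.002, SE 0.34) and Hyal1 (-1.63, SE 0.57). Against WT, Ctsf, a cysteine cathepsin, stood at -1.01 (SE 0.29) with ranges that did not overlap (2.56% of all genes were so separated downward). Lysosomal membrane proteins were negative in 13 of 22 against FLT3 ITD (median -0.13), led by Ostm1, the partner of the chloride exchanger Clcn7, at -0.89 (SE 0.24). Of the cathepsin inhibitors tested, Cst3 among them, 5 of 6 were negative (median -0.81), where 52% of all genes were positive. Serpinb1a stood at -2.27 (SE 0.48) and cystatin B (Cstb), the inhibitor inside the cell, at -0.86 (SE 0.23). Both had every double-mutant library under every FLT3 ITD library, as 3.52% of all genes had. Serpinb1a was near the limit of detection, at 0.649 CPM in the double mutant and 3.16 CPM in FLT3 ITD on average. Genes for sorting hydrolases to the lysosome were positive in 11 of 19 (median 0.15), with the receptor Lrp1 at 1.12 (SE 0.44), and none of these lists had a gene that passed. Of the MiT factors, the double mutant stood at 0.15 (SE 0.23) for Tfeb, 0.26 (SE 0.37) for Tfe3, 0.36 (SE 0.34) for Mitf and -0.08 (SE 0.15) for Tfec against FLT3 ITD, and the 19 genes of the family and its regulators had a median of -0.17.

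Several members overlap other annotated genes in GRCm38. Ctsd overlaps Gm49369, Ctsl Gm49230, Ctss Hmgb1-ps5, Glb1 Tmppe, Manba Gm16100, Galns Gm45857 and Arsb Mir5624 on the same strand, so reads could have been split there. Hexa overlaps Tmem202, Sgsh Card14, Ctsb Fdft1 and Grn Fam171a2 on the other strand. The library kit keeps strand, but whether the counting used it is not stated, and these values are uncertain to that extent.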

How the data were processed

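The authors deposited a table of read counts per gene and a table of TPM values for 16 libraries, made from 500 ng of RNA each with poly(A) selection and a directional kit with molecular identifiers, per the labels' protocols. The submitters' processing notes name the aligner STAR 2.7.6a, the counter featureCounts 2.0.3, UMI-tools 1.1.1, cutadapt 4.2, bcl2fastq 2.20.0.422 and build GRCm38.p6. Their order, their settings and the use of strand in counting are not given in the sources used here. The deposited TPM values imply more reads than the deposited counts hold, so the TPM table was not made from these counts.

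Counts were tested in R 4.3.3 with edgeR 4.0.16 (filterByExpr, TMM scaling, robust quasi-likelihood fit of 4 genotype means over 16 libraries), with Benjamini-Hochberg adjustment over 12093 genes and a threshold of 0.05. Library totals ran from 24211724 to 35773313, and the coefficient of variation between replicates was 0.37, which limits the precision more than depth does. CPM are scaled by TMM, and log2 CPM, computed from the deposited counts, have a prior count of 2. TPM were tested as log2(TPM + 1) with limma 3.58.1 and a mean of at least 1 TPM, and fold changes there understate low genes. Alternatives were DESeq2 1.42.0, other scaling, filters and pseudocounts, a replicate block, and each library left out. The scripts were tested on simulated data. The labels do not say whether replicate numbers pair libraries across genotypes. Correlations of deviations between libraries of the same number ran from -0.633 to 0.851. Between FLT3 ITD and Ptprc KO all 4 were positive (0.142, 0.237, 0.461 and 0.851). Whether numbers share a batch was not tested.

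The members and gene lists were chosen with earlier results of these data known. Values in every library are given for members among the 4 smallest p under 0.05 of a comparison, for the 4 with the highest mean TPM and for Ctse near the limit of detection. Arsb, Smpd1, Ctsl and Lipa were added after their values were seen, and so were the macrophage comparison and the libraries left out together. From other lists, up to 3 genes with the smallest p were named, and the MiT factors were named for their role. Promoters come from RefSeq, which had entries for 32 of 37 members.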

Additional observations from a re-analysis of the deposited data

Results flagged for a closer look

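In 24 of 148 combinations of gene and genotype, 1 library stood far from the other 3 by Dixon's test of the gap to the nearest library. Chance gives about 1 in 20, and the flags are not independent, since 12 of them were in FLT3 ITD replicate 4. That library was high in the proteases Ctsb (10564 CPM), Ctsc (471.5 CPM), Ctsd (5753 CPM), Ctsh (186.9 CPM), Ctsl (3142 CPM), Ctss (4414 CPM) and Lgmn (702.3 CPM). It was also high in Grn (1875 CPM), Lipa (1845 CPM), Psap (15470.2 CPM) and Ppt1 (88.8 CPM), and low in Arsa (37.8 CPM). Ptprc KO replicate 4 was high in Ctsc (368.2 CPM), Ctss (1792 CPM), Lgmn (709.9 CPM) and Lipa (1625 CPM). Double-mutant replicate 2 was high in Ctse (0.934 CPM), Ctsh (195 CPM), Man2b1 (745.9 CPM) and Asah1 (398.6 CPM), and double-mutant replicate 3 in Arsb (1039 CPM) and Smpd1 (151.2 CPM). Cst3 was high in FLT3 ITD replicate 2 (1480 CPM), and Manba was low in WT replicate 3 (113.7 CPM).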

How the results depend on the processing

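In the double mutant against FLT3 ITD, the count of 0 members became 3 with DESeq2, 0 to 8 with 1 library left out and 16 without double-mutant replicate 3 and FLT3 ITD replicate 4, and the median of -0.06 with 1 library left out ran from -0.36 (without double-mutant replicate 2) to 0.017 (without double-mutant replicate 4). With TPM it was 0.077 (pseudocount 1), 0.080 (pseudocount 0.1) and 0.027 (no filter). Against Ptprc KO the count of 0 became 1 with DESeq2, 0 to 7 with 1 library left out and 11 without both, and without both it was 4 against WT and 14 for the interaction. The same TPM settings gave -0.177, -0.179 and -0.173 for the median of FLT3 ITD against WT, and 0.159, 0.161 and 0.146 for that of the interaction. Ctss in the double mutant against FLT3 ITD ran from -0.038 (without double-mutant replicate 2) to 2.38 (without FLT3 ITD replicate 4), and reversed to -0.24 with FLT3 ITD replicates 1 and 3 summed and replicate 2 left out. The members called against Ctsk, 0, became 11 with log2(TPM + 1) (20.4% of genes), 17 with deviations from the mean of all libraries (43.7%), 13 with FLT3 ITD replicates 1 and 3 kept apart (24.6%) and 0 to 3 with 1 library left out (3 without double-mutant replicate 4, 15%). Against the macrophage sum, 16 (23.0% of genes) became 6 to 16 with 1 library left out, 15 with TPM and 17 (27.2%) with those replicates kept apart. The cause of these shifts was not tested. With the replicate block, 0 members passed in all 6 comparisons, and the genes called in the double mutant against Ptprc KO were 47 in place of 11. Whether the replicate numbers pair the libraries is not known.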
